A study of Homo sapiens with 1 sample.

Results

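Chromosome 7 of 786-O cells held 5655 of the 88615 peaks of accessible chromatin that lay on the 24 primary chromosomes (6.38%), out of 88676 deposited peaks in all. Its members were all peaks with their summit on chromosome 7 of hg38, placed in 5 Mb bins and split into promoter peaks, with the summit from 1 kb upstream to 100 bp downstream of an annotated transcription start site (TSS), and other peaks. The study asked how DPF3a, an isoform of an accessory subunit of the SWI/SNF remodelling complex, alters chromatin and movement of clear cell renal cell carcinoma (ccRCC) cells. The library used here was the control of that work, 786-O cells with an empty vector by its label, although the names of its peaks read as wild type, and the label was followed. 786-O is an established ccRCC line, and its open DNA was mapped by ATAC-seq, which relies on the transposase Tn5 to cut and tag DNA that nucleosomes leave free. There was 1 library and no replicate, so no p-value is given, the values describe this library, and the DPF3a library was not analysed here. The label was checked against markers. Of 8 genes of renal carcinoma lines, 7 had a promoter peak (87.5%; exact interval, 47.3 to 99.7). The interval included the 61.4% of all protein-coding genes with one, so this count alone did not set these genes apart. Their folds ran from 8.24, at NDUFA4L2 and KRT18, to 47.9 at VIM. PAX8, a transcription factor of the renal lineage, had 31.9, and EPAS1, the hypoxia-inducible factor subunit of these cells, had 21.6. CA9, a carbonic anhydrase, had none. Of 6 defining genes of leukocytes, endothelium, hepatocytes and beta cells, such as PTPRC, PECAM1, ALB and INS, 0 had a promoter peak (exact upper bound, 45.9%). PECAM1 did have 3 peaks inside the gene, with folds of up to 45.9.

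Active promoters and enhancers are kept free of nucleosomes by transcription factors and remodelling complexes, and Tn5 reaches the DNA there. Chromosome 7 carries the receptor tyrosine kinase genes MET and EGFR, the HOXA cluster and the gene of the Polycomb methyltransferase EZH2, and gain of the whole chromosome is frequent in renal carcinoma. The short arm is called 7p and the long arm 7q.

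Each peak had a fold, the pileup of reads at the summit over a single background for the whole genome. Folds ran from 5.15 upwards and followed from whole pileups of 9 to 300, so a 95% Poisson interval can be given for each. These intervals cover counting error only. Since the background was the same everywhere, a fold holds both the number of copies of a stretch of DNA and the openness of each copy, and these cannot be told apart. Strong peaks were chosen by fold, as those at or above 71.1, the 99th percentile of all peaks on the primary chromosomes. By that choice 1.02% of all peaks were strong, with a share of 2.28% among promoter peaks and 0.715% among other peaks. On chromosome 7 there were 178 strong peaks. The peaks just inside the limit, with a fold of 71.1 (59.8 to 84.0), lay in introns of EGFR and of the noncoding gene COMETT and at the promoter of the pseudogene ZNF767P. Those just outside, with 70.6 (59.3 to 83.4), lay in introns of TTYH3 and EXOC4 and at an internal promoter of TNS3. The last was 99928 bp downstream of the canonical TSS of that gene.

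To show what DNA lay under the strongest sites, 121 bases around the summit of 9 of them are given, from the plus strand of hg38. Windows that reached into an exon were left out. They were taken from the 20 strongest peaks of the chromosome, with the last, from 7p, added as the strongest site of its bin. Capitals mark matches to letters known for transcription factors: TGACTCA or TGAGTCA for AP-1, CCGGAAGT for ETS factors, GGGGCGGGG for SP/KLF factors, TGTGGTT for RUNX and CATTCCA for TEAD, each on both strands.
KMT2E, gene body, fold 155 (chr7:104945219-104945339): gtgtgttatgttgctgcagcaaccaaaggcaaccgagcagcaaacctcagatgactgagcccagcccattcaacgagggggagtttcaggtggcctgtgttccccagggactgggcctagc
ESYT2, intron, fold 144 (chr7:158818660-158818780): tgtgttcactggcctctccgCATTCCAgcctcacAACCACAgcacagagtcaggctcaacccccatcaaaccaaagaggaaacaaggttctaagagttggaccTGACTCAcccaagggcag
PHTF2, promoter, fold 139.6 (chr7:77798562-77798682): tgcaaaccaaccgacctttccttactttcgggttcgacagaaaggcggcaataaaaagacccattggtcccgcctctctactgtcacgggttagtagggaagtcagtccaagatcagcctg
PDIA4, promoter, fold 131 (chr7:149028771-149028891): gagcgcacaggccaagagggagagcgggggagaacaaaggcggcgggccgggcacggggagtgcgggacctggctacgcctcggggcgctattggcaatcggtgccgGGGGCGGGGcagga
intergenic, nearest FAM3C, fold 128 (chr7:121530510-121530630): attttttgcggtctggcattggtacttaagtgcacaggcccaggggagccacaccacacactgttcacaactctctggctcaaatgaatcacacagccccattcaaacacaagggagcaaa
BMT2, promoter, fold 124 (chr7:112939891-112940011): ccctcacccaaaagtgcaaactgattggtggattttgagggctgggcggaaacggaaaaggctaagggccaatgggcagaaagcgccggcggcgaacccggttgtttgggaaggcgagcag
DOCK4, promoter, fold 116 (chr7:112206440-112206560): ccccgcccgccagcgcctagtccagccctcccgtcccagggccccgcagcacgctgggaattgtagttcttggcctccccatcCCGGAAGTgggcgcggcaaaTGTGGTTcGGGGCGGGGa
PRKAG2, intron, fold 112 (chr7:151754299-151754419): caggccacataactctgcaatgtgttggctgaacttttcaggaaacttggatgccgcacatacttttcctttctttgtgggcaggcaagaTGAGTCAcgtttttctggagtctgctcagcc
intergenic, nearest NFE2L3, fold 104.6 (chr7:25862551-25862671): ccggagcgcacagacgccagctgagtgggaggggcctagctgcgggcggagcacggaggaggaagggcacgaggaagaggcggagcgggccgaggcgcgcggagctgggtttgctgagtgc
The intronic site of ESYT2 held AP-1, RUNX and TEAD letters together. The promoter site of DOCK4 held ETS, SP/KLF and RUNX letters, and the PDIA4 promoter SP/KLF letters close to the end of the printed window. The sites of KMT2E, PHTF2 and BMT2 and both intergenic sites held none of these letters.

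Chromosome 7 had more strong peaks than any other chromosome. There were 178 (3.15% of its peaks; exact 95% interval, 2.71 to 3.64), followed by 164 on chromosome 8 (3.43%; 2.93 to 3.99), 113 on chromosome 1 and 106 on chromosome 5, whereas the median autosome had 9. The share among all other chromosomes together was 0.873% (0.811 to 0.938). At promoters, 8.44% of the peaks of chromosome 7 were strong (6.74 to 10.4), compared with 1.92% elsewhere (1.72 to 2.14). At other peaks, the share was 2.10% (1.71 to 2.55), compared with 0.617% (0.559 to 0.680). By share of strong peaks chromosome 7 ranked 2 of 22 autosomes, after chromosome 8, and the intervals of these 2 chromosomes overlapped. The median fold was 10.8 on chromosome 7 and 10.8 elsewhere, and among other peaks it was 9.79 and 9.27. The 90th percentile was 45.3, compared with 35.0 elsewhere. Peaks were 35.6 per Mb (rank 7 of 22), and 16.6% of them were at promoters (15.6 to 17.5; rank 15 of 22).

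**Figure D1:**
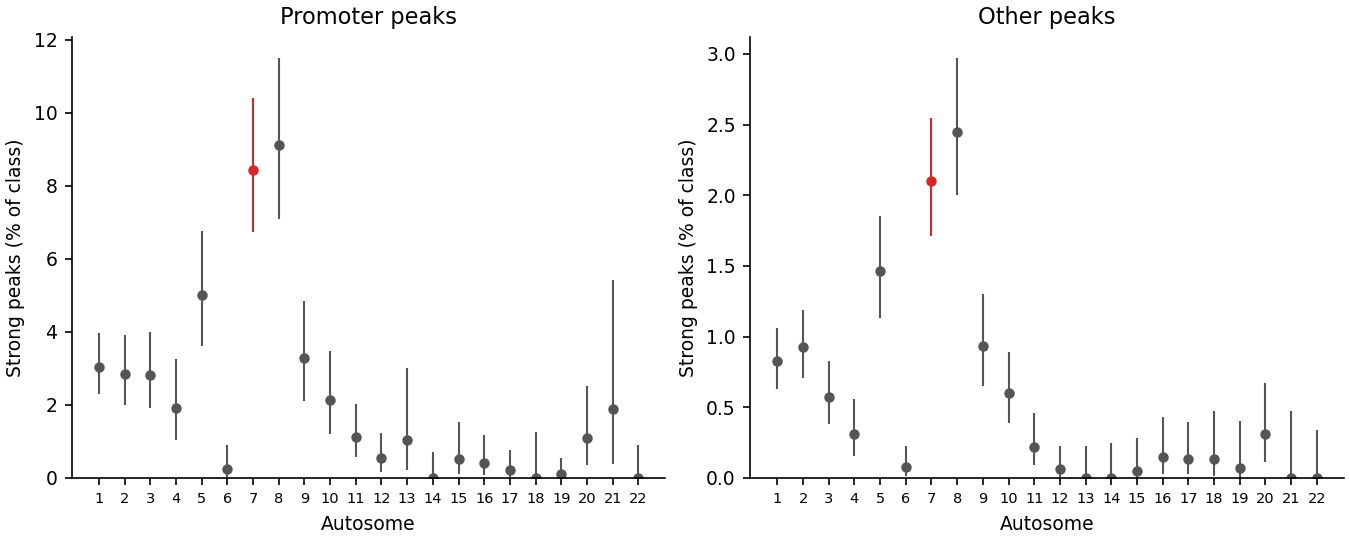
Share of strong peaks (y axis, % of promoter peaks at the left and % of other peaks at the right) on each autosome (x axis). Bars are exact 95% intervals. Chromosome 7, in red, lies at 8.44% and 2.10%, below chromosome 8 and above the other autosomes in both panels.

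Counted by gene, the promoter was open at 598 of the 930 protein-coding genes on chromosome 7 (64.3%; 61.1 to 67.4), beside 61.4% over the primary chromosomes, so the share of open genes was near the background. The folds at these genes were higher. The median of the highest promoter peak of a gene was 38.1 (interquartile range, 23.7 to 56.7), compared with 25.8 (16.0 to 39.2) over all open protein-coding genes. A strong promoter peak was found at 90 of the 598 genes (15.1%), compared with 417 of 12299 (3.39%).

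Along the chromosome, strong peaks were spread over 31 of 32 bins, but unevenly. The densest bin was that from 100 to 105 Mb, with 287 peaks (57.4 per Mb), 95 protein-coding genes and 15 strong peaks. The bin from 10 to 15 Mb had the fewest peaks of those away from the centromere, 85 (17.0 per Mb), with 10 protein-coding genes and 2 strong peaks. Next to the centromere, the bin from 60 to 65 Mb had 19 peaks and 0 strong ones. The bins from 100, 150 and 75 Mb held most strong peaks, with 15, 15 and 10, and those from 135 and 155 Mb also had 10. The first 3 held 40 strong peaks (22.5% of the strong peaks) and 12.1% of all peaks. The bin from 150 Mb also had the highest share of strong peaks, 7.08%. Bins with more genes had more peaks (Spearman's rho 0.63 over 31 bins, which share 1 library and differ in base composition), and the number of strong peaks followed the number of peaks less closely (rho 0.29).

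**Figure D2:**
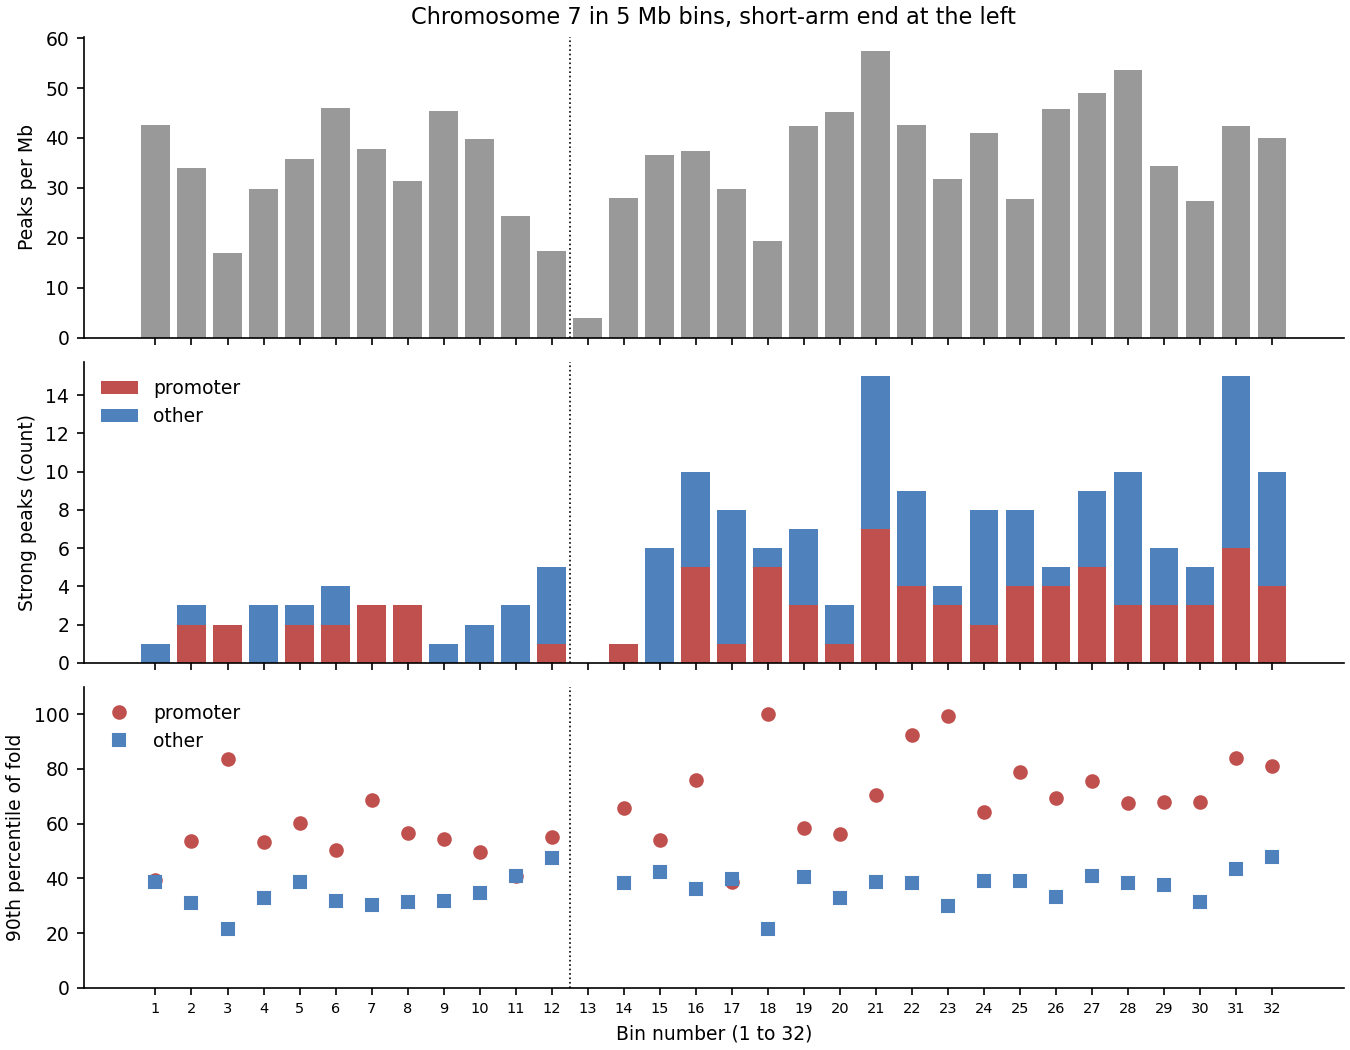
Peaks per Mb, number of strong peaks and 90th percentile of fold (y axes) in the 32 bins of 5 Mb (x axis, numbered from the short-arm end). The dotted line marks the last bin of the short arm; the bin next to it has 19 peaks and no percentile. Strong peaks are up to 5 a bin at its left and up to 15 at its right.

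The strong peaks lay mostly on the long arm. Dividing the chromosome at its widest stretch without a summit, around the centromere, gave 2005 peaks on 7p (34.9 per Mb) and 3650 on 7q (37.9 per Mb). This division was made after the uneven bins had been seen, and the strong peaks were chosen by fold, so the contrast is a description. On 7p, 33 peaks were strong (1.65%; 1.14 to 2.3), and on 7q 145 were (3.97%; 3.36 to 4.66), a ratio of the shares of 2.41. With the 95th percentile of the fold as the limit, the ratio was 1.58. Of 17 bins with 5 or more strong peaks, 16 were on 7q, and the other was the bin of EGFR from 55 Mb, with 5 of its 86 peaks strong. The highest fold of 7p was 107, whereas 26 peaks with a higher fold lay on 7q.

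Over all peaks and at other peaks, the arms differed at high folds and little at low ones. Promoter peaks differed already at the median, with a ratio of 7q to 7p of 1.26, and of 1.33 at the 90th percentile. The median fold over all peaks was 10.8 on both arms, and that of other peaks was 9.79 on both. The 90th percentile was 39.2 on 7p and 49.0 on 7q. At promoters the median was 22.4 on 7p and 28.3 on 7q, and the 90th percentile 54.8 and 72.7. At promoters the strong share was 4.36% on 7p (2.46 to 7.09) and 10.8% on 7q (8.43 to 13.6). At other peaks it was 1.08% on 7p (0.643 to 1.71) and 2.65% on 7q (2.11 to 3.28). The share of protein-coding genes with a promoter peak ran the other way. It was 207 of 297 genes on 7p (69.7%; 64.1 to 74.9) and 391 of 633 on 7q (61.8%; 57.9 to 65.6), with overlapping intervals. The lowest share of a bin was on 7q, from 140 to 145 Mb, with 18 of 70 genes (25.7%). In that bin, 1.57 Mb had another copy on the chromosome or in alternative sequence. Sequence with another copy on the chromosome or in alternative sequence, where reads can be lost, made up 2.55% of 7p and 6.97% of 7q.

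**Figure D3:**
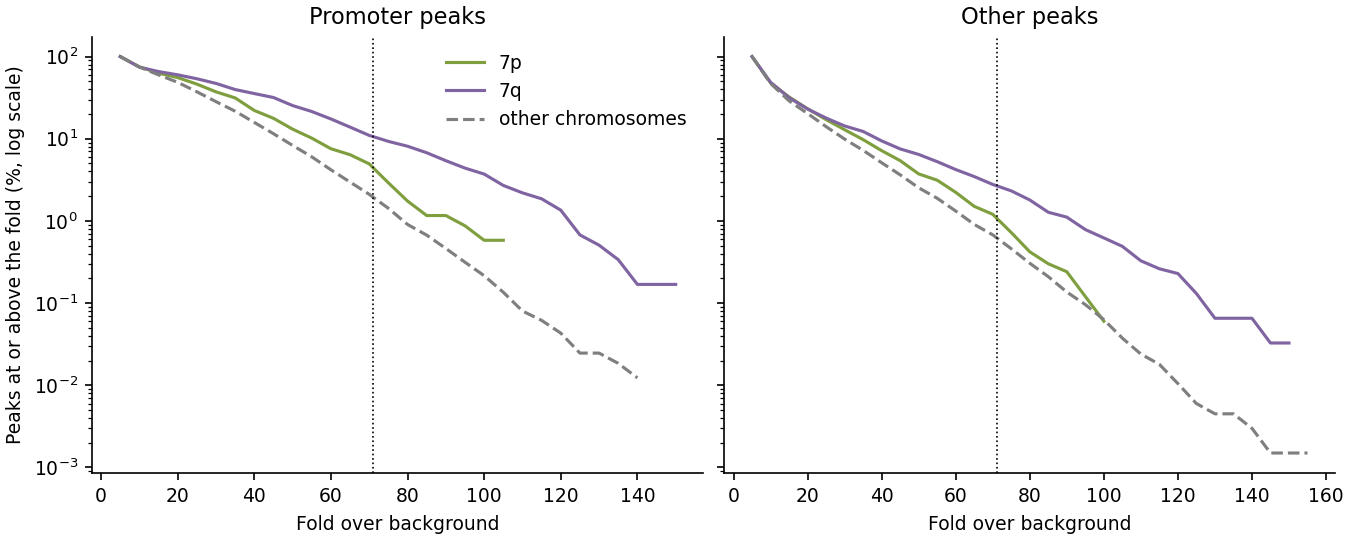
Share of peaks at or above a given fold (y axis, %, log scale) against fold (x axis), for 7p, 7q and all other chromosomes, at promoter peaks (left) and other peaks (right). The dotted line is the limit of strong peaks, 71.1. The curves start together and separate upwards, with 10.8% of promoter peaks of 7q and 4.36% of those of 7p above the limit.

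Classes of other peaks told apart by the letters in the 101 bases around the summit were compared as well. Where a CTCF motif was present, CTCF being the factor that anchors chromatin loops, the median fold was 10.8 on 7p (36 peaks) and 11.3 on 7q (83 peaks), beside 8.24 on the other chromosomes. None of these peaks was strong. Where an AP-1 site but no CTCF motif was present, the median was 11.6 on 7p, 11.9 on 7q and 11.3 on the other chromosomes. Of these, 1 of 288 was strong on 7p (0.347%; 0.00879 to 1.92) and 22 of 503 on 7q (4.37%; 2.76 to 6.55), beside 0.873% on the other chromosomes. Where neither was present, the median was 9.27 on both arms and on the other chromosomes. The strong share of this class was also higher on 7q, with 1.27% on 7p (0.742 to 2.03) and 2.39% on 7q (1.82 to 3.07). On the other chromosomes it was 0.579%.

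Compared with the rest of the chromosome, strong peaks were more often at promoters and wider. Of the 178, 79 were at promoters (44.4%; 37.0 to 52), 67 in gene bodies (37.6%) and 32 between genes (18.0%). Among the other 5477 peaks, 15.6% were at promoters (14.7 to 16.6), 56.3% in gene bodies and 28.0% between genes. The median width was 1607 bp for strong peaks and 514 bp for the rest, and width moves with pileup in peaks called in this way. Strong peaks outside promoters were not closer to genes, as their median distance to the TSS of a protein-coding gene was 23186 bp, compared with 22780 bp. At promoters the summit lay a median of 88 bp from the nearest TSS for strong peaks and 87 bp for the rest. Promoters shared by more than 1 protein-coding gene were more frequent among the strong ones, with 15 of 79 (19.0%; 11.0 to 29.4), compared with 43 of 857 (5.02%; 3.65 to 6.70). Examples were the promoters between PHTF2 and TMEM60, THAP5 and DNAJB9, DOCK4 and ZNF277, and AKR1D1 and CREB3L2.

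The strongest peak was inside KMT2E, which encodes a chromatin regulator of the MLL family, at chr7:104944518-104946127. Its fold was 155 (138 to 173), and it lay 3617 bp downstream of a TSS of the gene and upstream of the canonical transcript. The next was at the promoter of PNPLA8, a calcium-independent phospholipase, at chr7:108525213-108526922 with 150.5 (134 to 169). The counting intervals of these 2 peaks overlapped, and so did those of most neighbours in the order that follows.

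Of the other promoters among the 20 strongest peaks, that of PHTF2 and TMEM60 had 139.6 (124 to 157). PDIA4, a disulfide isomerase of protein folding, had 131 (116 to 149). The promoter shared by THAP5, a zinc finger gene, and DNAJB9, a co-chaperone of the endoplasmic reticulum, had 126 (111 to 143), and that of AKR1D1, a steroid reductase, and CREB3L2, a membrane-bound transcription factor of the secretory pathway, had 121 (106 to 137). BMT2, a sensor of S-adenosylmethionine upstream of mTORC1, had 124 (109 to 141), and FZD1, a Wnt receptor, 122 (107 to 138). HBP1, a transcriptional repressor, had 120.1, POT1, a telomere-binding protein of shelterin, 119.5, NCAPG2, a condensin subunit, 117, and DOCK4, an activator of Rac, 116.

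Away from promoters, the strongest sites were in the first intron of ESYT2, which tethers the endoplasmic reticulum to the plasma membrane, with 144 (127 to 162), and in an intron of the cell adhesion gene NRCAM, with 129 (114 to 146). Intergenic sites followed at chr7:121530024-121531303, 134206 bp from the nearest protein-coding TSS (FAM3C), with 128 (113 to 145), and at chr7:80942105-80943235, 20146 bp from that of SEMA3C, a secreted semaphorin, with 123 (108 to 139). A site in the noncoding gene ENSG00000228113, 27919 bp from SRI, had 120.1. Among the 20 strongest peaks, 9 were thus not at promoters, including the KMT2E site and 3 sites described next at PRKAG2 and PNPLA8.

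On 7p, the strongest peak was at a promoter shared by UMAD1 and a transcript of RPA3, a subunit of the replication protein A complex. It had 107 (92.7 to 122) and lay 78011 bp downstream of the canonical TSS of RPA3. An intergenic site 289587 bp from NFE2L3 had 104.6, and the promoter of SP4, a zinc finger transcription factor, 98.4. The weakest of the bin maxima on either arm was the promoter of ZNF138 with 65.4, in the bin next to the centromere. Other bin maxima on 7p lay at EEPD1 (81.4), BBS9 (73.7), COBL (77.3), HECW1 (71.6) and EGFR (88.6), at the noncoding genes ENSG00000235837 (77.8) and ENSG00000237471 (95.8), and between genes near SDK1 (83.5). On 7q those not named elsewhere were at KCTD7 (87.1), CLDN4 (107), PDK4-AS1 (79.4), SND1 (110.3), BPGM (109.8) and TMEM178B (101.5).

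Strong peaks fell in or at the promoters of 125 protein-coding and 44 long noncoding RNA (lncRNA) genes. More than 1 strong peak was held by 14 protein-coding genes and at least 3 by 5 of them, and the lncRNA gene LINC01004, which overlaps KMT2E, shared 3 of the peaks of that gene. PRKAG2, the gamma subunit of the AMP-activated kinase that senses cellular energy, held 6. They lay within 66.5 kb of its 321 kb, among 12 peaks, with folds of 121, 112, 101, 99.4, 83.5 and 83.0. The gene had 38 peaks in all with a median fold of 19.8, and the peak over its canonical TSS had only 12.4 (8.03 to 18.3). The strong sites of this gene were internal, and 1 of them was at the promoter of a shorter transcript.

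KMT2E held 4 strong peaks, with 155, 86.1, 83.0 and 72.7. The other 13 peaks of the gene ran from 5.15 to 55.1. By the promoter rule the gene had no promoter peak, since its nearest summit lay 1501 bp from a TSS, although the interval of the strong peak at chr7:105011797-105015893 covered the canonical TSS. PNPLA8 had 4 peaks inside the gene, and 2 of these were strong, with 150.5 and 119.5. A further strong peak, that of THAP5 and DNAJB9, lay at the promoter of a longer transcript. CREB3L2 held 3 strong peaks with 121, 110.3 and 81.4, including the promoter shared with AKR1D1. Its 30 internal peaks had a median of 17.0.

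EGFR, the epidermal growth factor receptor, held 3 strong peaks, all in introns, with 88.6 (75.9 to 103), 80.4 and 71.1, and a further strong peak lay beyond its end in the lncRNA gene ELDR with 74.2. Its promoter peak was lower, with 24.7 (18.3 to 32.7), and their counting intervals did not overlap. MET, the receptor of hepatocyte growth factor, had a strong promoter peak with 84.0 (71.6 to 97.9) and a strong intronic peak with 83.0, and the upstream gene COMETT held another strong site with 71.1. CDK6, the kinase that drives the G1 phase with D cyclins, had 39 peaks inside the gene, of which 1 was strong, with 91.2. The peak that covered its canonical TSS was 36.1 (28.2 to 45.5), and its summit lay outside the promoter window. In CUX1, a homeobox gene, 2 of 28 peaks were strong, with 91.7 and 90.7, and the peak over its canonical TSS had 7.21.

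**Figure D4:**
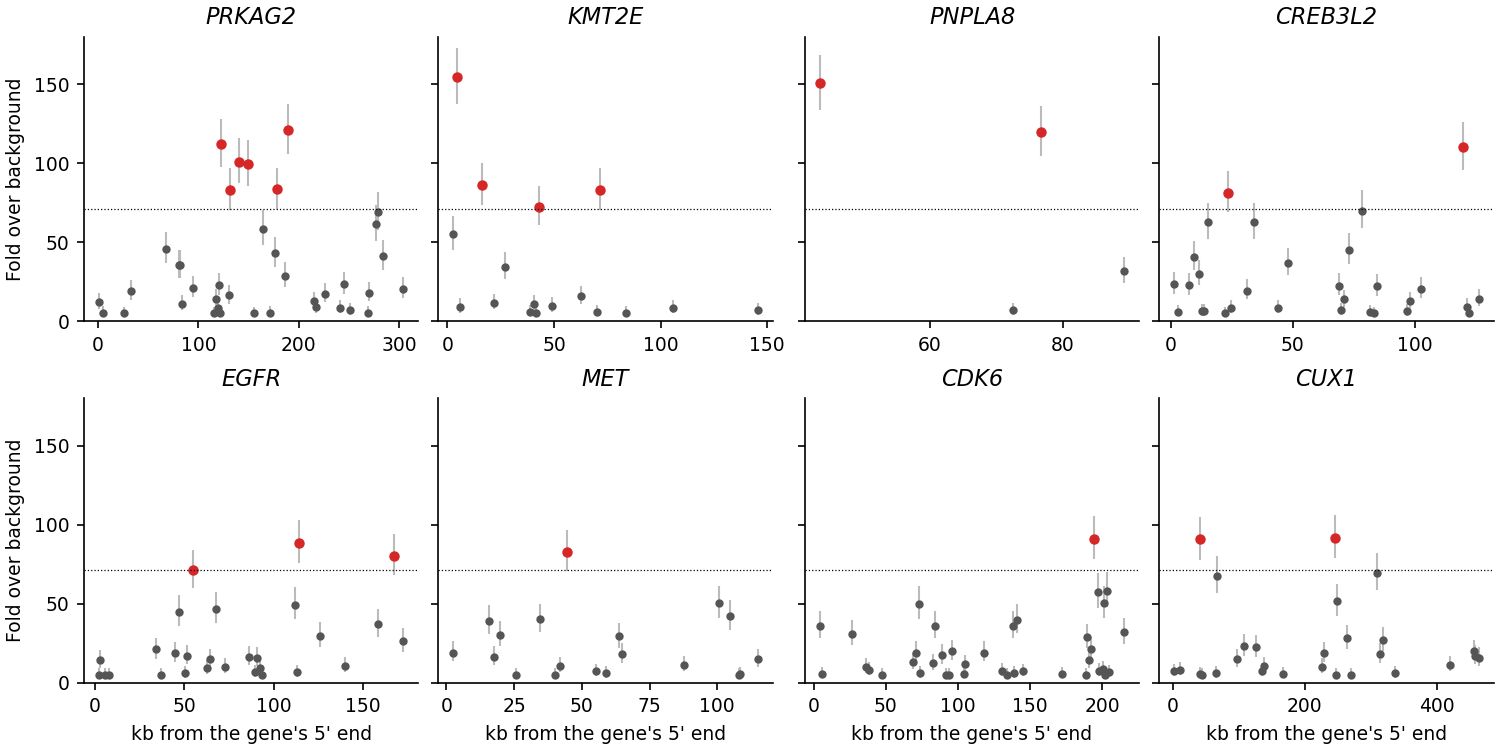
Fold over background (y axis) of each peak with its summit inside 8 genes against the distance from the gene's 5' end (x axis, kb). Grey bars are 95% Poisson intervals and red points strong peaks; the dotted line is 71.1. In PRKAG2, CUX1 and EGFR the strong sites lie far inside the gene, and PNPLA8 has 4 peaks with 2 of them strong.

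Other close groups of strong peaks, with at most 100 kb between neighbours, were found at HSPB1, YWHAG, SSC4D and ZP3 (5 strong peaks of 23, folds 75.2 to 91.2), at ABCB8, ASIC3, CDK5 and SLC4A2 (3 of 3, folds 84.5 to 103), at RARRES2, REPIN1 and ZNF775 (3 of 14, folds 78.3 to 92.8), at and before INSIG1, a regulator of sterol synthesis (3 of 11, 76.3 to 104.6), and at DNAJB6, a co-chaperone (3 of 19, 73.7 to 107). In all, 11 groups of at least 3 were found, and that of EGFR was the only one on 7p.

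Next, the letters of 9 motifs were searched in the 101 bases around each summit, on both strands. Sequence had no part in the choice of the strong peaks. At other peaks, AP-1 letters were found in 23 of 99 strong windows (23.2%; 15.3 to 32.8), compared with 16.6% (15.6 to 17.8) of the rest of the chromosome and 18.0% of all such windows on the primary chromosomes. The core of the hypoxia response element, ACGTG or GCGTG, which short as it is occurs often, was found in 21 of 99 (21.2%; 13.6 to 30.6), compared with 13.1% (12.1 to 14.1) and 13.4%. TEAD letters were in 7.07% (2.89 to 14.0), compared with 3.77% and 3.77%, and RUNX letters in 9.09% (4.24 to 16.6), compared with 5.56% and 5.97%. The intervals of AP-1, TEAD and RUNX included the share of the rest. That of the hypoxia response element core lay above this share while the 2 intervals overlapped. Strong windows on the other chromosomes held AP-1 letters in 25.5%, the core in 17.0%, TEAD letters in 5.34% and RUNX letters in 9.22%. CTCF motifs were in 0 of 99, which allows a share of up to 3.66% (exact upper bound), compared with 2.58% of the rest, so a lower share was not detectable with this number of windows. On the other chromosomes they were in 0 of 412 strong windows (upper bound 0.891%), beside 2.51% of all such windows on the primary chromosomes.

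At promoters, SP/KLF letters were in 10 of 79 strong windows (12.7%; 6.24 to 22.0), compared with 5.95% (4.46 to 7.75) of the rest and 6.52% of all promoter windows. ETS letters were in 5 of 79 (6.33%; 2.09 to 14.2), compared with 2.45% and 2.0%. The hypoxia response element core was in 27 of 79 (34.2%; 23.9 to 45.7), compared with 24.9% and 26.6%. AP-1 letters were in 1 of 79 (1.27%; 0.032 to 6.85), compared with 6.18% and 6.0%. In strong promoter windows of the other chromosomes, AP-1 letters were in 7.37% (4.73 to 10.9), and this interval overlapped that of chromosome 7. The shares there were 9.62% for SP/KLF, 2.24% for ETS and 32.7% for the hypoxia response element core. On chromosome 7, the intervals of ETS, the hypoxia response element core and AP-1 included the share of the rest. That of SP/KLF lay above this share while the 2 intervals overlapped. Letters of NRF1 (GCGCATGCG) and HNF1 (GTTAATNAT) were in 0 of the 79 windows and in 0 of the 99. The strong promoter windows had a median of 8 CpG dinucleotides, compared with 6 in the rest, at a like GC content (63.4% and 62.4%).

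Genes of chromosome 7 with known roles were then read by their highest promoter peak, in 7 lists with 107 different genes, of which 63 had a promoter peak (58.9%), beside 64.3% of all protein-coding genes of the chromosome. Any transcript counted, so some of these peaks lay far from the canonical TSS. The peak was 167454 bp downstream of it at AMPH, 99928 bp at TNS3, 41217 bp at ATP6V0A4 and 35219 bp at SGCE. The distance was 19854 bp at GHRHR, 13491 bp at HDAC9 and 10476 bp at LIMK1. Of the growth signalling genes, 7 of 10 had a promoter peak, with a median fold of 23.7. Beside MET and EGFR, the small GTPase RAC1 had 39.7 (31.4 to 49.5), the kinase BRAF 23.7 (17.4 to 31.5), IGFBP3, a binding protein of insulin-like growth factors, 21.6, the adaptor GRB10 21.1 and the ligand PDGFA 14.4. HGF, CDK6 and IGFBP1 had none. HGF, the ligand of MET, had its nearest summit 5947 bp from a TSS, whereas that of IGFBP1 lay 119 bp away with the summit outside the promoter window.

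Of the chromatin and transcription factor genes, 13 of 20 had a promoter peak, with a median of 28.3. The highest were ETV1, an ETS factor, with 74.2 (62.6 to 87.3), BCL7B, a SWI/SNF subunit, with 68.5, and BAZ1B, a subunit of an ISWI remodeller, with 64.4. The histone deacetylase HDAC9 had 52.6, EZH2 49.0 (39.7 to 59.8) and CBX3, which binds methylated histone H3, 44.3. KMT2C, a histone methyltransferase, had 21.1 and SMARCD3, a SWI/SNF subunit, 15.5. The 7 genes without were KMT2E, TRRAP, the neuronal SWI/SNF subunit ACTL6B, and TWIST1, IKZF1, DLX5 and SHH, regulators of development or of blood cells. ACTL6B had no peak inside the gene, and its nearest summit lay 14548 bp from a TSS. Those of TRRAP and SHH lay only 445 and 332 bp from a TSS, but outside the promoter window.

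Genes of the TGF-beta superfamily, matrix and cell movement had the highest open share of the lists, with 16 of 20 (80.0%; 56.3 to 94.3) and a median of 45.9. The interval included the 64.3% of all protein-coding genes of the chromosome, whose open genes had a median of 38.1. CAV1, the main protein of caveolae, had 103 (88.8 to 118) and SEMA3C 82.4 (70.2 to 96.2). They were followed by TNS3, an adaptor of focal adhesions, with 70.6, LIMK1, a kinase of actin turnover, with 51.5, TFPI2, a protease inhibitor, with 49.5, and ARPC1A, a subunit of the actin-nucleating Arp2/3 complex, with 49.0. INHBA, the activin A subunit, had 38.6, IL6 35.0 and ACTB 28.9, whereas the actin-bundling FSCN1 had 8.76. CAV2 had 43.8 at its promoter and an internal site of 93.3. The collagen gene COL1A2, the laminin gene LAMB1, the ubiquitin ligase SMURF1 and ARPC1B had none by the promoter rule. Their nearest summits lay 758, 652, 870 and 367 bp from a TSS, outside the promoter window.

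Of the genes of kidney, oxygen and metabolism, 10 of 14 had a promoter peak, with the highest median of the lists, 55.7. After PNPLA8, the highest were CYCS, which encodes cytochrome c, with 91.2 (78.3 to 106), NAMPT, of NAD synthesis, with 80.4, the proton pump subunit ATP6V1F with 59.8, NDUFA4, of the respiratory chain, with 57.2, and OGDH, of the citric acid cycle, with 54.1. Genes of specialised transport had none, namely the water channel AQP1, the sulfate carrier SLC13A1 and the anion exchanger SLC26A4, and neither had the hormone gene EPO. AQP1 had an internal peak of 44.8. ATP6V0A4, a pump subunit of intercalated cells, had 7.73 at its promoter and 106 at a site in its body. HILPDA, a hypoxia-inducible gene of lipid droplets that was in no list and was named after its value was seen, had a strong promoter peak with 87.1.

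In the HOXA cluster, whose genes set position along the body axis, 9 of 14 genes had a promoter peak, and 0 had a strong one. The folds included 27.8 at HOXA4, 26.3 at HOXA6, 18.0 at HOXA5 and 12.4 at HOXA10. HOXA2, HOXA3, HOXA7, HOXA11 and EVX1 had none, although HOXA3 had 9 internal peaks of up to 32.5. The nearest summits of HOXA3, HOXA7 and HOXA11 lay 359, 730 and 614 bp from a TSS, outside the promoter window. Of 6 imprinted genes, 4 had a promoter peak. The folds were 60.8 at SGCE, 42.3 at COPG2, 21.1 at GRB10 and 13.4 at the start shared by PEG10 and SGCE. MEST and KLF14 had none, although the nearest summit of KLF14 lay 125 bp from a TSS, outside the promoter window. Of 24 genes of other cell types, 5 had a promoter peak (20.8%; 7.13 to 42.2). These were the neuronal genes GRM8 with 27.3, RELN with 8.76, CNTNAP2 with 6.18 and AMPH with 5.67, and the receptor gene GHRHR with 17.5. The digestive enzyme genes PRSS1, CPA1 and MGAM, the T cell receptor constant genes TRBC1, TRBC2 and TRGC1, and the taste, odour and vision genes TAS2R38, OR2A12 and OPN1SW were among the 19 without. Of these 19, the starts of TRBC1, TRBC2, PRSS1 and the blood group gene KEL, 4 in all, lay in sequence with another copy, where lost reads and closed chromatin cannot be told apart.

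**Figure D5:**
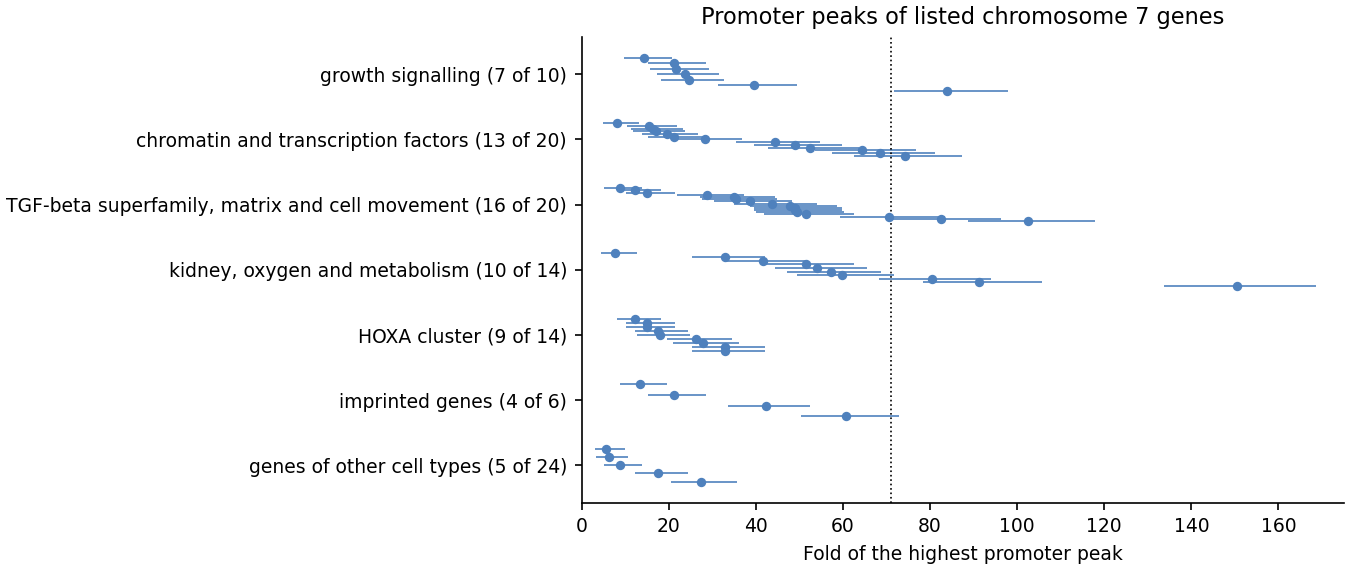
Fold of the highest promoter peak (x axis) of each listed gene that had one, by list (y axis, with the number of genes with a promoter peak of all listed). Bars are 95% Poisson intervals and the dotted line is 71.1. HOXA genes lie below the line, and 3 genes of kidney, oxygen and metabolism pass the line.

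Finally, the stretches without a summit were listed. The widest was at the centromere, with 5475 kb. It was followed by 1399 kb from chr7:56106595 to 57505388, with the genes NUPR2, ZNF479 and ZNF716, and by 1202 kb from chr7:142013292 to 143215313. The latter held 13 protein-coding genes, among them the trypsinogen gene PRSS1, the calcium channel genes TRPV5 and TRPV6, the blood group gene KEL and the receptor gene EPHB6, and 87.3% of it had another copy in the reference. The next spanned 910 kb beside the centromere (62.6% with another copy), 748 kb across GALNT17, a glycosyltransferase gene, and 579 kb without a protein-coding gene. The stretches of 748 kb and 579 kb had none of their bases in copies on chromosome 7 or in its alternative sequences. Copies on other chromosomes were not searched. Sequence with another copy, 9.14 Mb in all, had 62 peaks (6.78 per Mb), compared with 37.3 per Mb in the rest of the chromosome. There, a promoter peak was found at 11 of 80 protein-coding genes (13.8%; 7.07 to 23.3), whereas 587 of 850 elsewhere on the chromosome had one (69.1%; 65.8 to 72.2). Since the authors removed reads of low mapping quality, closed chromatin and lost reads cannot be told apart in these stretches. Of the 178 strong peaks, 2 lay in them.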

How the data were processed

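ATAC-seq gave 1 library of 786-O cells with an empty vector. According to the study's methods and the submitters' processing notes, the authors used fastp for trimming and Bowtie2 2.3.4.3 for alignment to hg38, removed mitochondrial, poorly mapped and duplicate reads and called peaks with MACS2 2.2.6 against 1 genome-wide background. A Tn5 shift is not given in the sources used here. The deposited ratio is the fold of the summit pileup over that background, the deposited −log10 values are the peak caller's p-value and q-value, and the deposited score, of at least 52, derives from the q-value. Folds, with a background pileup of 0.941, followed from whole pileups to within 1.8e-05. Total depth is unknown.

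Summits were assigned with GENCODE release 44 to promoters (any transcript), gene bodies or neither. Poisson and Clopper-Pearson intervals (95%) cover counting error only, and there were no tests. Duplicated sequence was found with minimap2 2.31 from 10 kb tiles that aligned over at least 9 kb elsewhere on chromosome 7, or from alignments of at least 10 kb of the 9 alternative sequences, with at most 5% divergence. The tiles replaced a self-alignment of the whole chromosome that could not be finished. Named were the 20 strongest peaks, the strongest peak of each bin, genes with at least 3 strong peaks, the peaks next to the limit, the widest stretches without a summit and the listed genes, some of which are not reported here but stay in the counts. CDK6, CUX1, other groups of strong peaks and promoters of gene pairs were added after their values were seen. The members and lists were chosen with earlier results of these data known. Functions were tested on simulated data. Computations ran in Python 3.11.15 with scipy 1.17.1, pandas 2.3.3 and numpy 2.4.6, and plots in matplotlib 3.10.9. Alternatives were other score minimums, promoter windows, TSS sets, percentiles and bins.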

Additional observations from a re-analysis of the deposited data

Results flagged for a closer look

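Outside the primary chromosome, 8 peaks lay on 1 of the 9 alternative sequences of chromosome 7, which none of the comparisons above used, and more than the 3 that a count of 0 would allow. Their folds were 6.18 to 27.3. That sequence aligned to chr7:142038121-143088503, inside the stretch of 1202 kb without a summit, where the primary chromosome had 0 peaks.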

How the results depend on the processing

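No paired analysis was possible because the data hold a single library. With a score above 100, the promoter share was 20.2%, the median fold 31.4 at promoters and 14.9 at other peaks, and the share of protein-coding genes with a promoter peak 60.4%. With a score above 200, there were 2642 peaks and these values were 25%, 35.6, 21.1 and 56.9%. The promoter share, its median fold and the gene share were 20.2%, 21.4 and 69.1% with promoters of 1 kb to both sides, 30.1%, 15.5 and 73.9% with 2.5 kb, and 11.3%, 32.5 and 54.5% with canonical transcripts. The first 2 were 12.7% and 30.4 with TSSs of protein-coding genes, and the promoter share was 20% by overlap of the interval. At the 95th percentile (fold 46.4) there were 543 strong peaks, and the ratio of the strong shares of 7q and 7p was 1.58. Under the other alternatives, chosen after seeing the data, that ratio was 2.15 to 2.53, with 2.48 at promoters, 2.44 at other peaks, 2.40 outside duplicated sequence and 2.15 without the 3 bins with most strong peaks. The number of strong peaks did not move with the score, and the 3 bins with most held 17.1% to 25.3%. With bins shifted by 2.5 Mb the highest density was 71.0 per Mb. Precision was limited by the pileup, with 36.5% of 7q peaks and 35.2% of 7p peaks under 15, and by 1 library.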
